A study of Saccharomyces cerevisiae with 6 samples.

Results

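The heat response of the mRNAs that co-purified with the yeast protein Npl3 was measured beyond the heat response of a mock precipitation. For each locus the log2 level in the Npl3 precipitate at 25 °C was subtracted from that at 42 °C, and the same difference in the control without a tagged protein was then subtracted. The result is called the difference of heat differences here. It rests on 4 of the 6 arrays of the series, 1 array per group, which allows no test, and none of the values has a replicate check.

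Baker's yeast was grown in the rich medium YPD at 25 °C, divided, and kept at 25 °C or 42 °C for 30 min before UV crosslinking and lysis. The control arrays come from cells labelled HKY36/HKY381 with no tag, and the Npl3 arrays from strain HKY157. Whether the control strains were pooled, which tag the Npl3 strain carries and what other alleles the strains have is not given in the labels. All lysates met the same beads, coupled to an antibody against the c-myc tag, and GFP-Trap beads. The other 2 arrays hold a precipitate of the export receptor Mex67 from strain HKY1266 at the same temperatures, and their heat difference shares no array with the result reported here.

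Npl3 is an SR-like RNA-binding protein that is loaded onto transcripts while they are made. It takes part in splicing and 3' end formation, travels with the mRNA through the nuclear pore as an adaptor of the export receptor Mex67, and is then released in the cytoplasm. Heat shock in yeast switches on genes under the transcription factors Hsf1 and Msn2/Msn4 and slows the export of most other mRNAs. The comparison asks which mRNAs became more or less abundant in the Npl3 precipitate on heating than they did in the mock precipitate.

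The arrays gave 5667 S. cerevisiae loci, and 5649 of them lay above a floor in at least 1 of the 4 arrays. The floor was the 95th percentile of the 4999 probe sets for S. pombe, a fission yeast which the labels do not name as a source of RNA. Medians over loci were alike on the 4 arrays, from 11.13 to 11.14, and the highest values were 15.36 to 15.43. A median of 36 labelling spike probe sets had control values of 6.65 (25 °C) and 6.64 (42 °C), against 5.22 and 5.40 with Npl3. Probe sets for ribosomal RNA (17) had medians of 14.57 and 14.33 in the control and 13.71 and 13.91 with Npl3. The excess of the 3' over the 5' actin probe set was 0.41 and 0.43 in the control and 1.19 and 1.10 with Npl3, and that of SRB4 was 2.15 and 2.31 against 3.26 and 3.08. In each of these measures the gap between the control and Npl3 was wider than the gap between temperatures. The Mex67 arrays differed between temperatures, with spike medians of 6.35 (25 °C) and 5.01 (42 °C), ribosomal RNA medians of 14.56 and 13.71, and 3' excesses of 0.44 and 0.82 for actin and of 2.09 and 3.02 for SRB4. The part of these gaps in the results, those with Mex67 included, was not tested. Since the control and the Npl3 cells are different strains, a difference in heat response between strains cannot be told apart from a difference in binding. Likewise, a change of an mRNA in the cell cannot be told apart from a change in its share among the RNAs bound.

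Of the 5649 loci, 64 were at least 2-fold higher in the Npl3 heat difference than in the control heat difference, which is 1.13%. At least 2-fold lower were 243 loci, or 4.30%, and 307 (5.43%) were called in either direction. The median over all loci was -0.00, with 2823 loci (50.0%) above 0 and 2826 (50.0%) below, so the excess of lower loci lay in the tail and not in the centre of the distribution. After quantile normalization of the loci over the 4 arrays the counts were 100 higher and 191 lower, and the higher share of called loci moved from 20.8% to 34.4%. Among the S. pombe probe sets, which hold background signal, 15 of 4999 (0.300%) passed the same threshold upward and 0 downward. These probe sets are dim, and their SD of 0.32 describes background and not the spread between independent precipitations. Of the 47 loci with several probe sets, the differences of the probe sets had a median range of 0.22, and the widest range was 1.97, at the polyamine transporter gene TPO2.

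Heat moved the control precipitate more than the Npl3 precipitate. In the control, 378 loci (6.69%) rose at least 2-fold and 117 (2.07%) fell, whereas with Npl3 119 (2.11%) rose and 78 (1.38%) fell. The SD of the heat difference across loci was 0.63 in the control and 0.45 with Npl3. Across the 5649 loci, which are not independent, the heat differences of these pairs had a Pearson correlation of 0.55 and a Spearman correlation of 0.55. Of the 378 loci that rose in the control, 83 also rose at least 2-fold with Npl3, 334 lay above 0 there and 6 fell. The median heat difference of these 378 with Npl3 was 0.52. In the Mex67 precipitate 322 of the same 378 rose, with a median of 1.83, against 867 (15.3%) of all loci that rose there and 689 (12.2%) that fell.

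**Figure D1:**
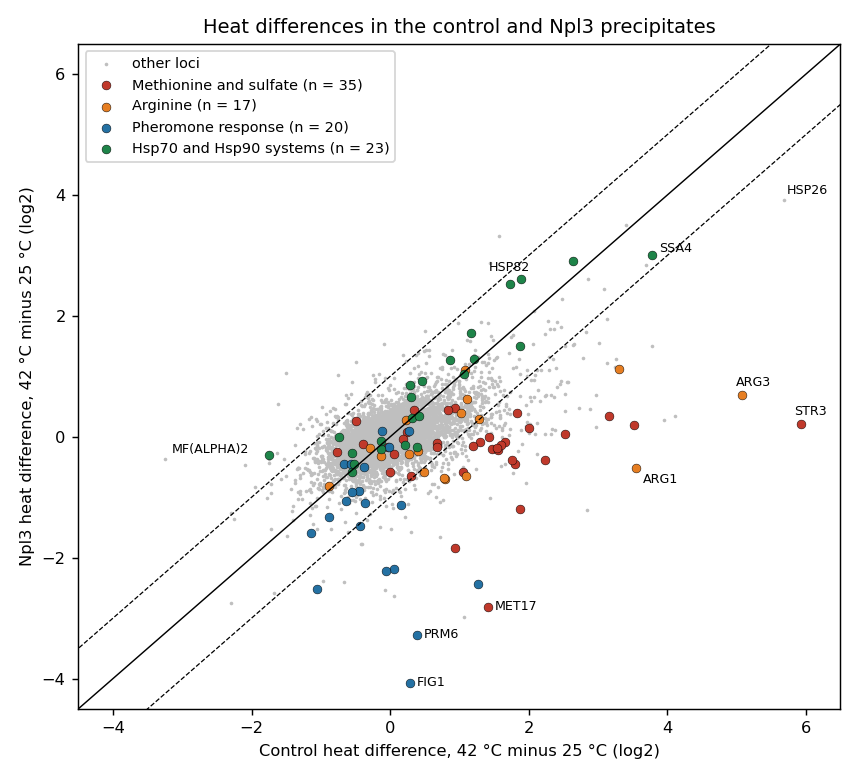
Heat difference (42 °C minus 25 °C, log2) in the control on the x axis and in the Npl3 precipitate on the y axis, 1 point per locus, with a solid line at equal differences and dashed lines at a 2-fold gap. Genes of methionine synthesis and arginine synthesis lie to the right and below, pheromone response genes below, and the Hsp70 and Hsp90 systems near the line of equality.

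Each of the lower loci was placed by which precipitate had moved. In 136 of the 243 (56.0%), the control rose at least 2-fold and the Npl3 precipitate stayed within 2-fold. The median levels of these 136 loci were 8.43 and 10.56 in the control at 25 °C and 42 °C, and 9.51 and 9.59 with Npl3. In the median these mRNAs thus started higher in the Npl3 precipitate and ended lower than in the heated control. At 25 °C 55 of the 136 were at least 2-fold above the control in the Npl3 precipitate, and at 42 °C 55 were at least 2-fold below. Over all loci 18.0% were at least 2-fold above the control at 25 °C and 19.4% at least 2-fold below at 42 °C. The 136 loci were chosen by their control rise and their difference, so this order and these counts follow in part from the choice. In the Mex67 precipitate, whose arrays were not used to choose them, 122 of the 136 rose at least 2-fold with heat and 134 lay above 0, with a median of 2.01. There 15.3% of all loci rose, and 322 of the 378 loci that rose in the control.

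A smaller set of 26 lower loci (10.7%) fell at least 2-fold with Npl3 while the control stayed within 2-fold. Their median levels were 10.44 and 9.95 in the control and 11.84 and 10.18 with Npl3, so here it was the Npl3 array at 25 °C that stood above the others. The loci were chosen by their fall with Npl3, so this order too follows in part from the choice. With Mex67 the same 26 loci had a median heat difference of 0.10, and 4 rose at least 2-fold, against 15.3% of all loci. In 19 loci both precipitates rose and the control rose more, in 1 both fell, in 6 they moved in opposite directions, and in 55 (22.6%) neither passed 2-fold alone.

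Among the 64 higher loci, 22 (34.4%) fell at least 2-fold in the control and stayed within 2-fold with Npl3. Their median control heat difference was -1.32, against 0.09 with Npl3. In the Mex67 precipitate 16 of these 22 fell at least 2-fold, with a median of -1.66. There 12.2% of all loci fell, and 84 of the 117 loci that fell in the control. Only 8 of the 64 (12.5%) rose at least 2-fold in the Npl3 precipitate while the control stayed within 2-fold, namely CTR1, CTR3, EEB1, IRC7, PNP1, RGI2, TPO4 and YJL107C, of which IRC7, RGI2, TPO4 and YJL107C were not picked by the naming rule. In 30 (46.9%) neither precipitate passed 2-fold alone.

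**Figure D2:**
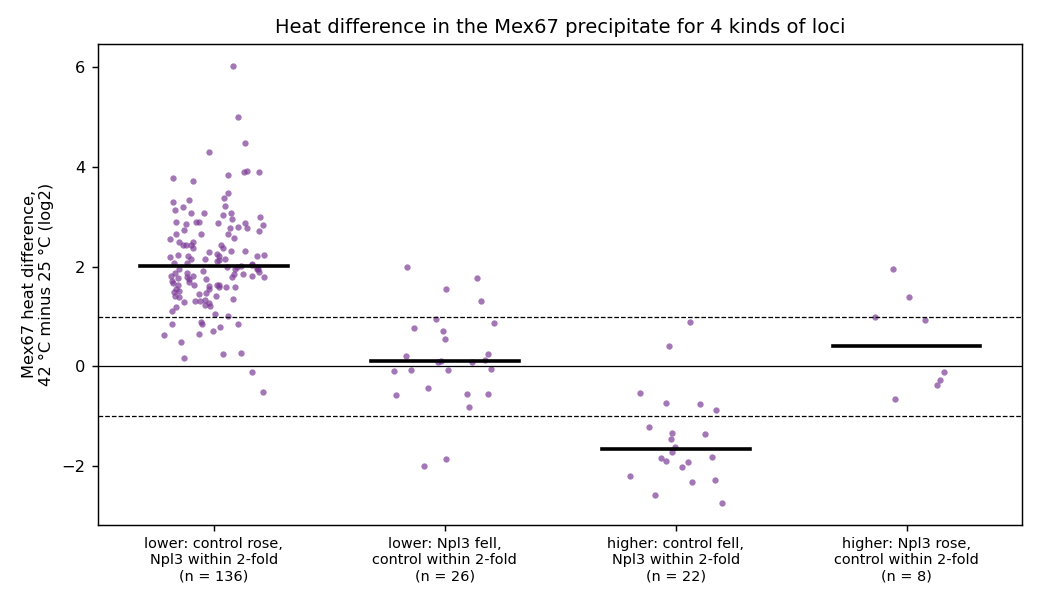
Heat difference in the Mex67 precipitate (log2, y axis) for 4 kinds of loci, sorted by which precipitate moved at least 2-fold. Points are loci, thick bars are medians, and dashed lines mark 2-fold. The 136 loci that rose in the control only have a median of 2.01 and the 22 that fell in the control only a median of -1.66.

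Methionine and sulfate genes made up the largest group among the lower loci. Yeast takes up sulfate, activates and reduces it to sulfide, joins the sulfide to a carbon chain made from homoserine, and methylates the homocysteine formed to methionine. Methionine is then converted to S-adenosylmethionine, the methyl donor of the cell. Of 35 genes of uptake, synthesis and regulation, 21 were lower by the 2-fold rule and 0 higher, against 4.30% and 1.13% of all loci. The list's median was -1.44, from a control heat difference of 1.29 and one of -0.14 with Npl3. In the control 20 of the 35 rose at least 2-fold, against 6.69% of all loci, and 0 of these 20 rose with Npl3. Of the 21 lower genes, 18 rose in the control and stayed within 2-fold with Npl3, and 20 of the 21 rose at least 2-fold in the Mex67 precipitate. With Mex67 15.3% of all loci rose, and 322 of the 378 loci that rose in the control.

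Uptake came first in the pathway. SUL1, a high-affinity sulfate permease, was at 5.14 and 8.66 in the control at 25 °C and 42 °C and at 6.16 and 6.36 with Npl3, a difference of -3.33. SUL2, the other sulfate permease, was at 9.91 and 11.34 in the control and at 10.43 on both Npl3 arrays, and its difference was -1.42. In both genes the heated control stood above the other 3 arrays. The methionine permease MUP1 was at 12.14 and 13.79 in the control against 10.13 and 10.04 with Npl3. Its relative MUP3 was at 9.77 and 11.78 against 9.73 and 9.88. Their differences were -1.75 and -1.86. SAM3 and MMP1, permeases for S-adenosylmethionine and S-methylmethionine, were at -1.72 and -1.37, and SEO1, a putative permease in no list, was at -3.77, with 6.25 and 10.37 in the control and 8.25 and 8.59 with Npl3.

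The enzymes that activate and reduce sulfate moved alike. MET3, the ATP sulfurylase, was at 10.34 and 11.81 in the control and at 9.98 and 9.78 with Npl3, a difference of -1.67. MET14 and MET16, which make and reduce the activated sulfate, were at -1.74 and -1.34. The sulfite reductase subunit genes MET5 and MET10 were at -1.77 and -1.63. MET1 and MET8 serve the synthesis of siroheme, the cofactor of sulfite reductase. MET1 was at -1.44, while MET8, at -0.46, did not pass 2-fold.

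Incorporation of sulfide and the steps to methionine held the largest differences. MET2, which activates homoserine, was at 8.38 and 11.54 in the control and at 6.81 and 7.16 with Npl3, a difference of -2.82. MET17, the enzyme that joins sulfide to that product, was at 11.85 and 13.26 in the control and at 11.47 and 8.66 with Npl3. Its level thus rose in the control and fell by 2.81 on the log2 scale with Npl3, and the difference was -4.22. In the Mex67 precipitate MET17 was at 6.49 and 5.62. STR3, which converts cystathionine to homocysteine, changed from 7.07 to 13.00 in the control and from 8.23 to 8.44 with Npl3. It had the lowest difference of all named loci, at -5.73, and rose by 6.02 with Mex67.

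MET6, the methionine synthase, was at 12.30 and 14.17 in the control and at 12.76 and 11.56 with Npl3, which gives -3.08. MET13, the reductase that supplies its methyl group, was at -2.25, and MHT1, which makes methionine from S-methylmethionine, at -2.14. SAM2, an S-adenosylmethionine synthetase, was at 12.16 and 13.10 in the control and at 12.92 and 11.08 with Npl3, a difference of -2.77. Here the control stayed within 2-fold and the Npl3 precipitate fell. Its paralog SAM1 was at -0.95 and did not pass 2-fold.

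Regulators of the pathway were divided. MET32, a DNA-binding partner of the activator Met4, was at 8.34 and 10.87 in the control and at 10.59 and 10.64 with Npl3, a difference of -2.48. MET28, another cofactor of Met4, was at 8.77 and 11.00 against 8.45 and 8.07, a difference of -2.62. Both rose in the heated control and neither rose with Npl3. MET4 itself was at -0.21, CBF1 at 0.26, MET30, the ubiquitin ligase subunit that restrains Met4, at -0.40 and MET31, the paralog of MET32, at 0.76. MXR1, a methionine sulfoxide reductase outside the list and chosen after its values were seen, was at 11.49 and 12.93 in the control and at 11.63 and 10.62 with Npl3, a difference of -2.45.

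**Figure D3:**
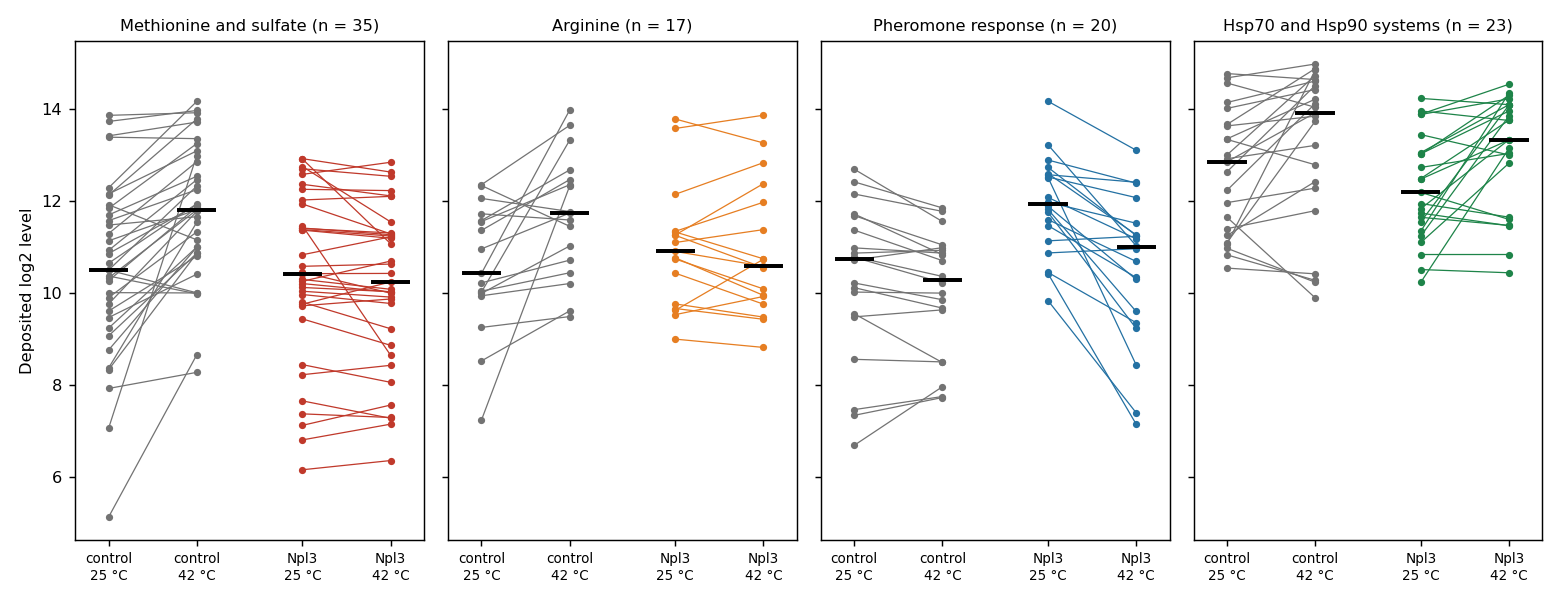
Deposited log2 level (y axis) of every member of 4 gene lists on the control arrays (grey) and the Npl3 arrays (colour) at 25 °C and 42 °C. Lines join the same gene and black bars are medians. The methionine and sulfate median goes from 10.51 to 11.82 in the control and from 10.43 to 10.25 with Npl3, while that of pheromone response genes goes from 11.94 to 11.00 with Npl3.

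Arginine genes moved in the same direction, from a different starting level. The lower loci included 8 of 17 genes and the higher loci 0, against 4.30% and 1.13% of all loci. The list's median was -0.64 (-1.08 over members above a higher floor, each array's median over loci). ARG3 and ARG1, which make citrulline and argininosuccinate, had the lowest differences, at -4.40 and -4.07. At 25 °C the Npl3 precipitate already held ARG3 at 12.15 against 7.24 in the control, and ARG1 at 13.79 against 10.43. At 42 °C the Npl3 precipitate and the control held ARG3 at 12.84 and 12.33 and ARG1 at 13.27 and 13.98, within 2-fold of each other. ARG5,6, listed as ARG56, encodes the enzymes of the early mitochondrial steps and was at 10.03 and 13.33 in the control and at 11.27 and 12.39 with Npl3, a difference of -2.18. It rose in both precipitates, and more in the control.

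ARG4, argininosuccinate lyase, was at 11.58 and 12.68 in the control and at 10.75 and 10.10 with Npl3, a difference of -1.75. ARG7, which makes ornithine, was at -1.45 and the mitochondrial ornithine carrier ORT1 at -1.08, and CPA1 was just past 2-fold lower, but not with the arrays centred on S. cerevisiae loci. The catabolic genes CAR1, arginase, and CAR2, ornithine aminotransferase, were at 0.07 and 0.11. The regulators ARG80 and ARG81, at 0.04 and -0.55, did not pass 2-fold either. With Mex67 4 of the 8 lower genes rose at least 2-fold, against 15.3% of all loci, and all 8 lay above 0.

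Other amino acid pathways had fewer lower loci, and the share over all loci was 4.30%. HIS4 of histidine synthesis was at 12.18 and 13.09 in the control and at 13.12 and 12.51 with Npl3, a difference of -1.53. The aromatic aminotransferase ARO9 was at -1.54 and TRP5 at -1.08, which made 3 of 19 histidine and aromatic genes. LEU1 and LEU4 of leucine synthesis, at -1.47 and -1.07, were 2 of 11 branched-chain genes. Of 8 lysine genes 0 passed 2-fold, and their median was 0.02, or -0.04 centred on S. pombe. BNA2, which opens the pathway from tryptophan to NAD, was at 8.68 and 12.63 in the control and at 11.68 and 11.96 with Npl3, a difference of -3.68, while the median of 14 NAD synthesis genes was 0.17, or -0.06 with the floor at the median over loci.

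Nutrient scavenging and storage genes lay mostly below 0. The counts of lower genes that follow stand against 4.30% of all loci. Among nitrogen catabolism genes 3 of 23 were lower, with a median of -0.61 (-0.24 after quantile normalization), among them the GATA activator GAT1 at -1.68 and the allantoin permease DAL4 at -2.10. In amino acid permeases the lower count was 3 of 19 with a median of -0.51 (-0.28 after quantile normalization and -0.21 with the higher floor), and the third beside MUP1 and MUP3 was AGP3 at -1.81. Trehalose and glycogen genes had 4 of 20 lower, 18 of 20 below 0 and a median of -0.61. GAC1 and GIP2, subunits that direct protein phosphatase to glycogen metabolism, were at -1.63 and -1.60, and ATH1, acid trehalase, at -1.11. GSY1, glycogen synthase, was at 11.47 and 11.61 in the control and at 10.14 and 9.25 with Npl3, a difference of -1.03.

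In hexose transport 5 of 25 genes were lower, against 4.30% of all loci, with a median of -0.21, or 0.01 with that higher floor. HXT5, a transporter of starved cells, was at 7.17 and 10.14 in the control and at 7.50 and 7.67 with Npl3, a difference of -2.80. HXT11, HXT9, HXT10 and HXT8 were at -2.71, -2.37, -1.40 and -1.25, and HXT10 and HXT8 no longer passed 2-fold after quantile normalization. HXT9 and HXT11 are near-identical copies, so signal may be shared between their probe sets. Autophagy genes had 4 of 36 lower and a median of -0.29 (-0.45 with the higher floor), with ATG41 at -2.10 and the kinase gene ATG1 at 9.97 and 11.82 in the control and 10.42 and 10.84 with Npl3, a difference of -1.43. Of the 36 autophagy genes, 3 rose in the control and 0 with Npl3, against 6.69% and 2.11% of all loci.

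Zinc, thiamine and pyridoxine genes had 4 of 18 lower, against 4.30% of all loci, and a median of -0.35 (-0.19 with the higher floor). ZAP1, the zinc-responsive activator, was at -1.27, THI2, a thiamine regulator, at -1.14, and SNO1 of pyridoxine metabolism at -1.30. THI13 was at -1.29 and belongs to a family of near-identical copies, so its value is uncertain. After quantile normalization THI2, SNO1 and THI13 did not pass 2-fold. Phosphate genes lay at both ends. GIT1, a glycerophosphoinositol permease, was at -2.19, the phosphatase PHM8 at -1.19 (-0.87 after quantile normalization) and the phosphate transporter PHO84 at -1.01. PHM6, a phosphate-regulated gene, was at 9.44 and 7.93 in the control and at 8.92 and 9.97 with Npl3, a difference of 2.56, so it fell in the control and rose with Npl3.

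FDH1, formate dehydrogenase, was at 6.27 and 9.10 in the control and at 10.11 and 8.90 with Npl3, a difference of -4.05. The control rose and the Npl3 precipitate fell, to nearly the same level at 42 °C. With Mex67 FDH1 rose by 3.06.

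**Figure D4:**
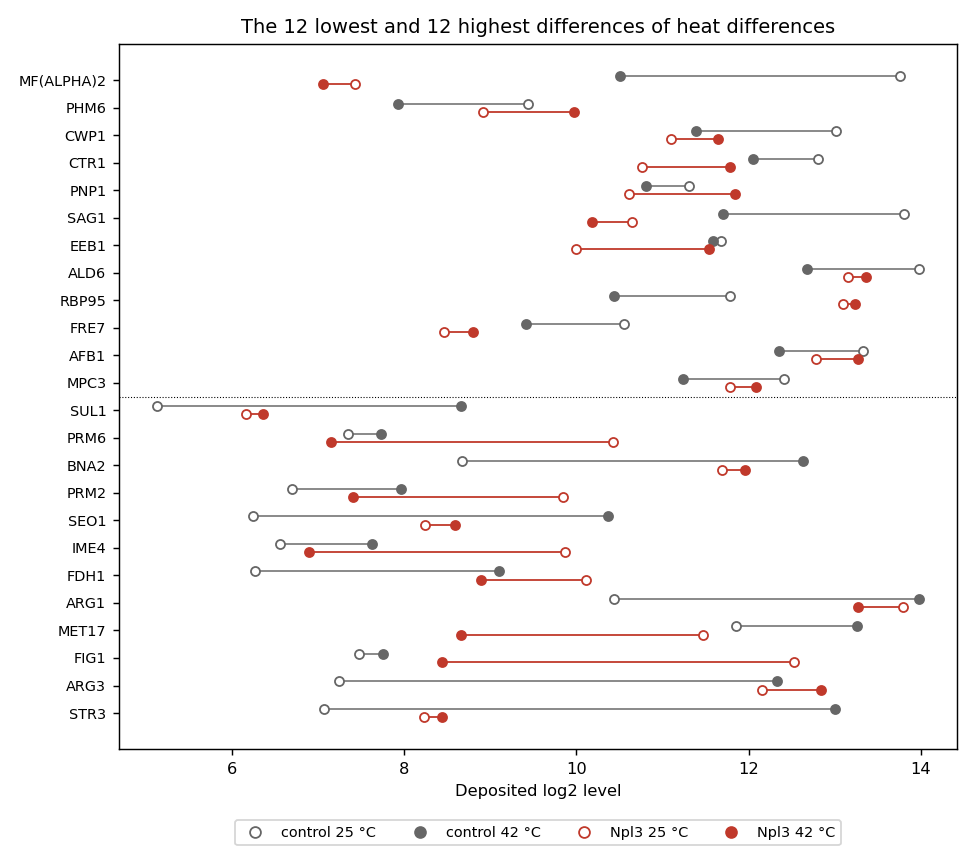
Deposited log2 levels (x axis) of the 12 highest and the 12 lowest named differences of heat differences, with open circles at 25 °C and filled circles at 42 °C, the control in grey and Npl3 in red. For STR3, SUL1 and SEO1 the heated control stands apart to the right, and for FIG1, PRM6, PRM2 and IME4 the Npl3 array at 25 °C does.

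Pheromone response genes fell mainly in the Npl3 precipitate. These genes are switched on through the receptor, a MAP kinase cascade and the factor Ste12, and serve cell fusion and mating. The lower loci included 8 of 20 genes and the higher loci 0, against 4.30% and 1.13% of all loci, at a list median of -0.45. With Npl3 12 of the 20 fell at least 2-fold on heating, against 1.38% of all loci. In the control 2 fell and 1 rose, against 2.07% and 6.69% of all loci. At 25 °C 12 of the 20 were at least 2-fold above the control in the Npl3 precipitate, with a median difference of 1.95, and at 42 °C 5 were, with a median of 0.54. Over all loci the shares at least 2-fold above the control were 18.0% at 25 °C and 18.7% at 42 °C. The median over all loci was -0.08 at 25 °C and -0.14 at 42 °C.

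FIG1, a membrane protein of mating cells, was at 7.47 and 7.76 in the control and at 12.52 and 8.44 with Npl3, a difference of -4.36. PRM2 was at 6.70 and 7.97 in the control and at 9.84 and 7.40 with Npl3, a difference of -3.71. PRM6 was at 7.35 and 7.74 in the control and at 10.43 and 7.16 with Npl3, a difference of -3.66. In these 3 genes the Npl3 array at 25 °C stood alone at the top, and the heated Npl3 array lay among or near the control arrays. FIG2, an adhesin, was at 10.88 and 10.94 against 13.23 and 11.04, PRM3, a nuclear fusion protein, at 8.57 and 8.51 against 11.82 and 9.61, and PRM1, which helps membranes fuse, at 9.56 and 8.50 against 11.76 and 9.24. The fusion genes FUS1 and FUS2 were at -1.05 and -1.28, and FUS1 did not pass 2-fold after quantile normalization. Genes of the cascade itself lay near 0, with STE12 at -0.12, the kinase FUS3 at 0.21 and the G protein subunit GPA1 at 0.11.

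Genes that depend on mating type differed in level between the control and the Npl3 strain. The a-cell genes STE2, BAR1, STE6 and ASG7 were at -1.43, -1.55, -1.53 and -2.70, and BAR1 was at -0.92 after quantile normalization. STE2, the alpha-factor receptor, was at 8.48 and 9.12 in the control and at 13.85 and 13.06 with Npl3. The alpha-cell genes MF(ALPHA)2, SAG1 and STE3 were at 2.88, 1.63 and 1.30. MF(ALPHA)2, an alpha-factor gene, was at 13.76 and 10.51 in the control and at 7.43 and 7.07 with Npl3. The heat differences of STE2 were 0.64 in the control and -0.79 with Npl3, and neither passed 2-fold. In the Mex67 precipitate STE2 was at 13.84 and 11.90, and MF(ALPHA)2 at 6.58 and 6.99. The Mex67 heat differences of STE2, BAR1, STE6 and ASG7 were -1.94, -1.99, -2.20 and -0.55. Those of MF(ALPHA)2, SAG1 and STE3 were 0.41, 0.88 and 1.37. Whether the strains differ in mating type was not tested, and on the 4 arrays compared such a difference cannot be told apart from Npl3. Other genes of the list differed little in heat response between the control and Npl3 despite wide gaps in level: MF(ALPHA)1 was at 0.12, AGA2 at 0.11, MFA1 at -0.05 and MFA2 at 0.23.

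IME4, which encodes the RNA methyltransferase of meiosis, was at 6.56 and 7.63 in the control and at 9.87 and 6.89 with Npl3, a difference of -4.05. IME4 has an antisense transcript, and which strand the probe set reads was not established here.

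Of 35 lipid synthesis genes, 3 fell at least 2-fold in the Npl3 precipitate, and these 3 were also the lower ones by the difference of heat differences. Over all loci these shares were 1.38% and 4.30%. OPI3, a methyltransferase that completes phosphatidylcholine, was at 12.13 and 12.06 in the control and at 14.00 and 11.46 with Npl3, a difference of -2.46. CHO2, the methyltransferase before it, was at 13.47 and 13.72 in the control and at 12.68 and 11.56 with Npl3, a difference of -1.37. INO1, which makes inositol phosphate, was at 9.57 and 10.29 in the control and at 11.61 and 9.95 with Npl3, a difference of -2.38. The median difference of the 35 was 0.12, with 19 above 0, and the sterol genes HMG1 and ERG5 were higher, at 1.25 and 1.05. In the Mex67 precipitate the heat differences of OPI3 and CHO2 were 0.10 and -0.09, and INO1 rose by 2.00.

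Of 29 iron genes, 7 fell at least 2-fold with Npl3 and 3 in the control, against 1.38% and 2.07% of all loci. Among those lower by the difference of heat differences, 3 fell with Npl3 and stayed within 2-fold in the control. FIT2, a cell wall mannoprotein that retains iron, was at 10.52 and 9.56 in the control and at 12.82 and 10.43 with Npl3, a difference of -1.42. SIT1, a siderophore transporter, was at 10.86 and 10.43 against 9.76 and 7.98, a difference of -1.36. TIS11, which destabilises mRNAs when iron is short, was at 9.17 and 8.76 against 10.97 and 9.20, a difference of -1.35. In all, 4 of 29 iron genes were lower, with ARN1 at -1.14, and 1 was higher, against 4.30% and 1.13% of all loci. The list median was -0.32.

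The higher iron gene was FRE1, a metal reductase that also serves copper uptake. It was at 12.83 and 11.57 in the control and at 10.63 and 10.76 with Npl3, a difference of 1.39. CTR1, the plasma membrane copper transporter, was at 12.80 and 12.05 in the control and at 10.76 and 11.78 with Npl3, a difference of 1.77. FRE7, another reductase, was at 10.56 and 9.41 against 8.47 and 8.80, a difference of 1.48. The other copper genes were chosen after their values were seen. CTR3, a second plasma membrane transporter, was at 10.31 and 10.81 in the control and at 11.24 and 12.99 with Npl3, a difference of 1.25, and it rose with Mex67 too, by 1.39. The vacuolar transporter CTR2, the regulator MAC1 and the metallothionein gene CUP1-1 were at -0.33, -0.07 and 0.09, and CUP1-1 stood near the top of the scale on all 4 arrays.

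Medians of heat shock genes differed between chaperone systems, with members on both sides of 0 in each. Chaperones bind unfolded proteins, and the disaggregase Hsp104 with the small heat shock proteins acts on aggregates. Of the 9 small heat shock and disaggregase genes, 8 rose in the control and 7 of these 8 with Npl3, with median heat differences of 2.62 and 1.81 over the 8. Of all loci 6.69% rose in the control, and 83 of these 378 loci also rose with Npl3. HSP78, the mitochondrial disaggregase, was at 10.80 and 13.63 in the control and at 10.18 and 11.91 with Npl3, a difference of -1.10. HSP26, a small heat shock protein, was at -1.76, and HSP30, a membrane protein, at -0.84. By the 2-fold rule 2 of the 9 were lower and 0 higher, against 4.30% and 1.13% of all loci. The list had a median of -0.60.

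In the Hsp70 system 4 of 11 genes rose in the control and the same 4 rose with Npl3, with medians of 1.92 and 2.32 over these 4. In the Hsp90 system 4 of 12 rose in the control and the same 4 with Npl3, with medians of 1.80 and 2.02. Of all loci 6.69% rose in the control and 2.11% with Npl3. List medians of the difference were 0.08 and 0.17, and the latter was 0.02 without loci near the top of the scale. HSP82, the inducible Hsp90, was at 13.01 and 14.74 in the control and at 11.56 and 14.09 with Npl3. CPR6, a cyclophilin of that system, was at 12.24 and 14.13 against 11.25 and 13.86, and SSE2, an exchange factor of Hsp70, at 11.26 and 12.43 against 11.11 and 12.83. Their differences were 0.81, 0.72 and 0.55, so none of the 3 passed 2-fold. SSA4 of the Hsp70 system was at 11.07 and 14.85 in the control and at 11.36 and 14.36 with Npl3, a difference of -0.78. CDC37 of the Hsp90 system was at -0.57. In all, 4 of the 11 Hsp70 genes and 5 of the 12 Hsp90 genes lay below 0. SNL1, an Hsp70 cofactor of the nuclear envelope, was at 11.66 and 9.91 in the control and at 11.95 and 11.66 with Npl3, a difference of 1.45.

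Most general stress genes that rose in the control also rose in the Npl3 precipitate. Of 28 genes, 19 rose in the control and 14 of these rose with Npl3, with medians of 1.44 and 1.22 over the 19. Over all loci 6.69% rose in the control, and 83 of these 378 loci also rose with Npl3. Of 7 trehalose and glycogen genes that rose in the control 1 rose with Npl3, and of 6 hexose transport genes 0 did. These counts describe genes picked by their control heat difference, which is a term of the reported difference, and the lists were not compared by a test. At least 2-fold lower were 5 of the 28 stress genes and 1 was higher, against 4.30% and 1.13% of all loci. The median of the 28 was -0.19, which turned to 0.05 with the floor at the median over loci. GND2, a phosphogluconate dehydrogenase, was at 8.32 and 12.10 in the control and at 9.90 and 11.41 with Npl3, a difference of -2.27. YRO2 was at -1.91, GRE1 at -1.65 and DDR2 at -1.25. SPI1, a cell wall protein of stressed cells, was at 11.92 and 13.36 in the control and at 11.39 and 14.27 with Npl3, a difference of 1.43.

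HSF1, the gene of the heat shock factor, was at 10.46 and 11.60 in the control and at 12.58 on both Npl3 arrays, a difference of -1.13. It rose by 2.00 with Mex67. HSF1 was 1 of 3 lower genes among 23 stress regulators, beside USV1 at -1.17 and MGA1 at -1.06. Over all loci 4.30% were lower, and the median of the regulator list was -0.17. The peroxiredoxin gene TSA2 was at 8.75 and 11.21 in the control and at 10.84 and 11.71 with Npl3, a difference of -1.58, while the median of 34 redox genes was -0.03, or 0.01 after quantile normalization.

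**Figure D5:**
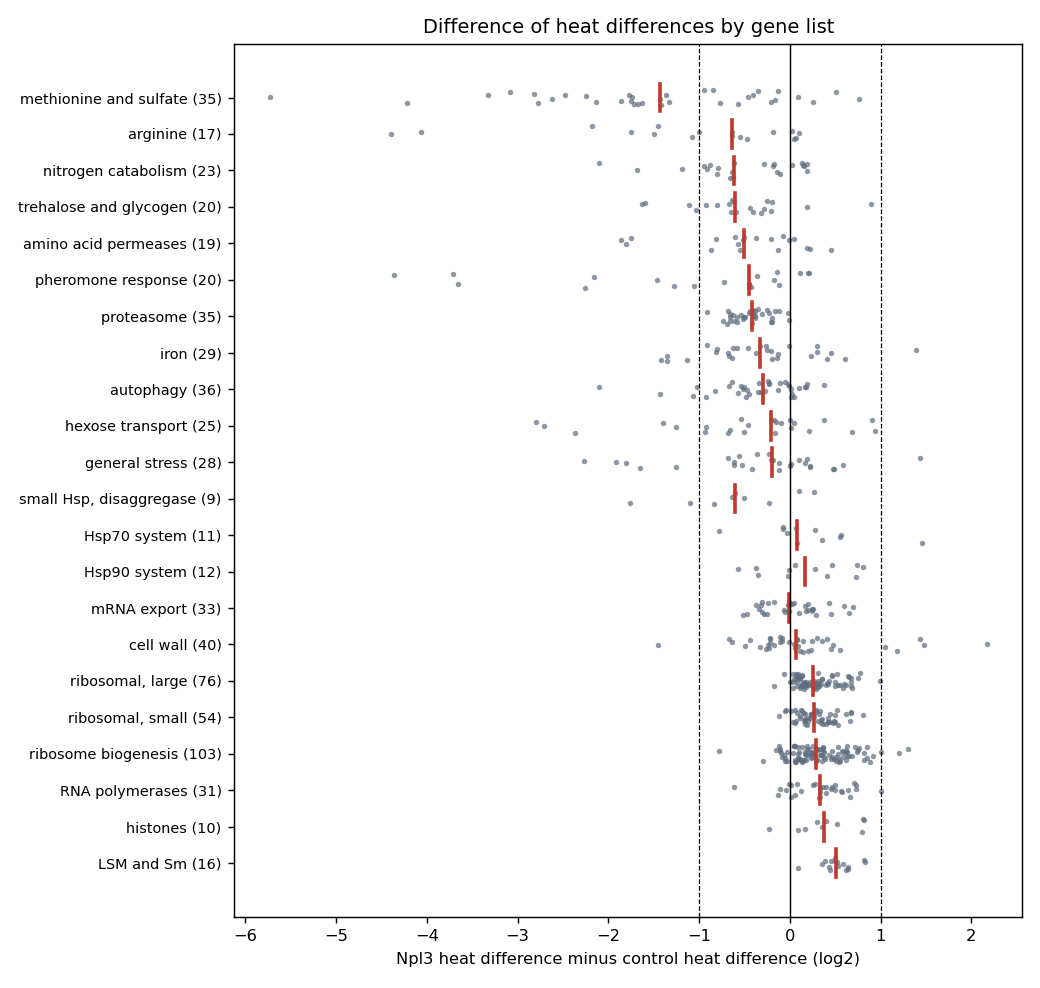
Difference of heat differences (log2, x axis) of every tested member of 22 gene lists, 1 point per gene, with the number of genes after each name and the list median as a red bar. Dashed lines mark 2-fold. The methionine and sulfate median lies past 2-fold at -1.44, and the other medians lie between -0.64 and 0.51.

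Several large complexes were displaced as a whole by less than 2-fold. All 16 LSM and Sm genes, which encode rings that bind spliceosomal and decaying RNAs, lay above 0, with a median of 0.51 from heat differences of -0.73 in the control and -0.21 with Npl3. SMD3 was at 11.00 and 10.09 in the control and at 12.46 and 12.38 with Npl3, a difference of 0.83. RNA polymerase subunits had 26 of 31 above 0 and a median of 0.34, with RPA43 of RNA polymerase I just under 2-fold at 1.00. Histones had 9 of 10 above 0 and a median of 0.38. Median levels over the histones fell from 13.18 to 11.98 in the control and were 13.05 and 12.54 with Npl3.

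Ribosome biogenesis factors had 90 of 103 above 0, a median of 0.29 and 3 higher genes, RRP36 at 1.30, ESF2 at 1.20 and BFR2 at 1.00. Of all loci 1.13% were higher by the 2-fold rule. RRP36, a factor for early cleavage of ribosomal RNA, was at 10.74 and 9.87 in the control and at 12.27 and 12.70 with Npl3. RBP95, a further assembly factor of the large subunit, was at 11.78 and 10.44 against 13.09 and 13.24, a difference of 1.49. Cytoplasmic ribosomal protein genes had medians of 0.26 over 76 large subunit genes and 0.27 over 54 small subunit genes, with 0 at least 2-fold in either direction, and RPL29 just under 2-fold at 1.00. For 67 mitochondrial ribosomal protein genes the median was 0.18. The difference had a trend with coding length over the 4 arrays. In 5 groups of about equal size the shortest had a median of 0.13 and the longest a median of -0.10. With that trend removed, the list medians were 0.12 and 0.13 for the ribosomal proteins of the large and small subunit, 0.08 for those of mitochondria, 0.40 for LSM and Sm genes, 0.24 for RNA polymerases, 0.23 for histones and 0.35 for ribosome biogenesis. Each of these medians thus stayed above 0.

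Protein degradation lay on the other side. All 35 proteasome genes were below 0, with a median of -0.41 and the lowest value of -0.92 at RPN1, a subunit of the regulatory particle. RPN1 was at 13.45 and 14.02 in the control and at 12.89 and 12.55 with Npl3. Among 26 ubiquitin and quality control genes the median was -0.29 and 20 were below 0. NPL4 and CDC48, which extract ubiquitinated proteins, were at -0.92 and -0.76. None of these genes passed 2-fold.

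Genes of mRNA export and decay were near 0 as lists. The 33 mRNA export factors had a median of -0.00, nuclear pore genes had -0.01 and P-body and stress granule genes -0.04, with 0 called genes in each. The sign of these 3 medians turned under other centring or with the length trend removed. NPL3 mRNA itself was at 13.98 and 14.19 in the control and at 14.98 and 15.03 with Npl3, a difference of -0.17, and MEX67 mRNA was at 0.10. The poly(A)-binding protein gene NAB2 was at -0.51 and MTR2, the partner of Mex67, at 0.59. Intron-containing genes outside the ribosome had a median of 0.11, with 3 of 73 lower and 1 higher, against 4.30% and 1.13% of all loci. In glycolysis and the tRNA synthetases the medians were both -0.08.

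Cell wall genes held the largest number of called members in the higher direction, 5 of 40, against 1.13% of all loci. The shorter mating type list had a larger share, 3 of 12. The median of the cell wall list was 0.07. CWP1, a cell wall mannoprotein, was at 13.01 and 11.38 in the control and at 11.10 and 11.65 with Npl3, a difference of 2.17. TIR1, a mannoprotein of cold and oxygen-poor growth, was at 12.52 and 10.98 against 11.02 and 10.65, a difference of 1.18. AFB1, which alpha cells secrete to block a-factor, was at 13.33 and 12.35 against 12.78 and 13.27, a difference of 1.47. GAS3 was at 1.05 and SPI1 was named above, and PIR3 was the 1 lower gene, at -1.46.

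The remaining named loci at the upper end were metabolic genes. PNP1, purine nucleoside phosphorylase, was at 11.30 and 10.81 in the control and at 10.61 and 11.84 with Npl3, a difference of 1.72. EEB1, an ester-forming acyltransferase, was at 11.68 and 11.59 against 10.00 and 11.53, a difference of 1.63. Both rose at least 2-fold in the Npl3 precipitate, from a level below the control. ALD6, an aldehyde dehydrogenase, was at 13.98 and 12.68 against 13.15 and 13.36, a difference of 1.51, and MPC3, a pyruvate carrier subunit, at 12.41 and 11.24 against 11.79 and 12.08, a difference of 1.47. For ALD6 and MPC3 it was the control that fell. COX5B and ANB1, isoforms used when oxygen is short, were at 1.13 and 1.07.

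Lower loci were concentrated among mRNAs of low level. The 1130 loci lowest in the control at 25 °C held 145 of the 243, and the 1130 highest held 7. Median heat differences in the lowest group were 0.34 in the control and 0.12 with Npl3. The level at 25 °C in the control is itself part of the difference, so this distribution is a description. By mean level over the 4 arrays, which weights them equally, the lowest 1130 loci held 120 and the highest 16. Near the threshold, RRT8 and CPA1 lay just inside and ASA1 and MPH1 just outside on the lower side, and SMU2 and BFR2 just inside and RPL29 and RPA43 just outside on the higher side. Of the named loci, TRP5, LEU4, PHO84, ATH1, GSY1, ARN1, MGA1, COX5B and ANB1 did not pass 2-fold once the length trend was removed, and BFR2, GAS3 and ERG5 did not once the arrays were centred on S. pombe probe sets.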

How the data were processed

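The values used are log2 values that the authors deposited for 10928 probe sets on each array. The tool affy is named per the submitters' processing notes. Its version, background correction, normalization and summary method were not given in the sources used here. A column was assigned to its sample through the strain number, with S read as stressed (42 °C) and US as unstressed (25 °C), which the labels do not spell out. The labels name both a 3' labelling kit and a whole-transcript manual.

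Of the probe sets, 5716 read S. cerevisiae. Values of a locus with several probe sets (47 loci) were averaged, and 5646 of 5667 loci were named through the RefSeq table of assembly R64. In 83 loci no probe set is unique to the transcript, and these were counted but, apart from THI13 and CUP1-1, not named. Differences were computed with Python 3.11.15, pandas 2.3.3 and numpy 2.4.6, and the counting was tested on simulated data. A locus was called at a 2-fold difference (1 on the log2 scale) if above the floor in at least 1 array. With 1 array per group no test was possible, and the number of arrays limits the precision.

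The 50 gene lists and the members were chosen with earlier results of these data known. Named were the 12 highest and 12 lowest loci with a symbol and a unique probe set, in each list the called members, the 4 largest differences and the member nearest the median, the mRNAs of NPL3 and MEX67 and the loci next to the threshold. Members of the leading lists that the rule did not name were given to complete the pathway, and were chosen after their values were seen. Alternatives were another floor, none, other centring and scaling, removal of the length trend (running median over 301 loci), other choices of probe sets and loci, and the Mex67 arrays as reference.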

Additional observations from a re-analysis of the deposited data

Results flagged for a closer look

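In 7 loci the control and the Npl3 precipitate moved at least 2-fold in opposite directions with heat. The difference between them was not tested, since each group holds 1 array. In MET17 (-4.22), FDH1 (-4.05), IME4 (-4.05), PRM2 (-3.71), MET6 (-3.08) and MXR1 (-2.45) the control rose and the Npl3 precipitate fell. In PHM6 (2.56) the control fell and the Npl3 precipitate rose. The Mex67 heat difference had the sign of the control in 6 of the 7, MET17 being the exception at -0.87.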

How the results depend on the processing

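The counts of 64 higher and 243 lower loci stayed within 1.5 times of these values without a floor, with either centring, without the length trend, with the brightest probe set per locus, without loci that lack a unique probe set and without loci near the top of the scale. A floor at the array's median over loci left 3753 loci, of which 54 were higher and 117 lower, fewer loci being counted, and list medians turned sign for hexose transport, general stress, NAD synthesis and redox genes (0.01). Quantile normalization gave 100 higher loci and 191 lower, and 64 and 185 of the called loci were shared. The cause was not tested. It left 10 of the named called loci within 2-fold, BAR1, FUS1, PHM8, HXT8, HXT10, SNO1, THI2, THI13, ATG36 and NDE2, and removal of the length trend left 12, among them TRP5, LEU4, ATH1, GSY1, PHO84, COX5B and ANB1. With the Mex67 arrays as the reference, 615 of 5651 loci were higher and 708 lower, and 38 of the 64 and 188 of the 243 were among them. Both versions hold the same Npl3 arrays, so part of this overlap is built in. Among the called loci named, the sign turned there for SAG1 (-1.35), MF(ALPHA)2 (-0.78), STE3 (-0.89), SPI1 (-0.35), BAR1 (0.66), STE2 (1.15), STE6 (1.36), TSA2 (0.70) and TPO4 (-0.90). Of the named loci within 2-fold it turned for others, among them HSP82 (-0.01), SSE2 (-0.92), MFA1 (1.33), MEX67 (-0.62) and CUP1-1 (-0.67), and the median of the methionine and sulfate list was -1.95. No paired analysis was possible because each group holds 1 array and the labels give no replicate numbers, and no replicate could be left out for the same reason. Near the top of the scale precision is limited, and 230 loci lay in the top 2% on at least 1 of the 4 arrays, among them 2 higher and 5 lower loci.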
